A study of Mus musculus with 48 samples.

Results

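The 10 genes described here encode the mTOR kinase, its partners in mTOR complexes 1 and 2, and the proteins that switch the first complex on or off. They were taken by gene symbol (Mtor, Rptor, Rictor, Mlst8, Tsc1, Tsc2, Rheb, Akt1s1, Deptor and Eif4ebp1) from 20622 genes with an RNA measurement and 16269 with a footprint measurement. All 10 had both. The rule uses symbols and no measured value, though the set was proposed with earlier results of these data known. Each of 24 male mice aged 2 to 4 months gave 1 library of ribosome-protected fragments (RPF, footprints) and 1 of cytoplasmic RNA, 48 in all, from pieces of liver. Every mouse received AAV8.TBG.Cre, a virus that drives Cre from a hepatocyte promoter, so that recombination is directed to hepatocytes while the tissue sequenced also holds other liver cells. The 4 genotypes were Wild-type (WT), Ctnnb1ex3/+ (B), R26-LSL-MYC (M) and Ctnnb1ex3/+; R26-LSL-MYC (BM), with 3 mice each at 4 and at 10 days after induction. Loss of exon 3 removes the degradation signal of β-catenin, and the R26 allele expresses a MYC transgene once its stop cassette is removed.

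mTOR is a serine/threonine kinase that couples growth factors, amino acids and energy to protein synthesis. Raptor (Rptor) is the scaffold of complex 1, Rictor defines complex 2, and the small subunit encoded by Mlst8 sits in both. The TSC complex (Tsc1, Tsc2) turns off the GTPase Rheb, which activates complex 1 at the lysosome. PRAS40 (Akt1s1) and Deptor bind and restrain the kinase, and 4E-BP1 (Eif4ebp1), a substrate, blocks the cap-binding factor eIF4E until it is phosphorylated. These activities are set largely by phosphorylation and localisation, which neither assay measured.

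The footprint libraries held 9742197 to 14380713 counts on coding sequence and the RNA libraries 3254141 to 6540116 estimated counts. Levels below are counts scaled to library size (CPM) by TMM over the 24 libraries of a type. The β-catenin target Glul was at 3060 to 4650 footprint CPM in B mice at day 4 and at 825 to 862 in WT mice. Footprints on Myc were at 57.5 to 62.1 CPM in M mice at day 4 and at 2.43 to 18.3 in WT, while Myc RNA was at 28.9 to 34.9 CPM in M, 19.6 to 29.6 in BM and 26.6 to 29.3 in WT, which overlap. The BM day 10 mouse 1 stood apart from both other mice of its group. Its median absolute log2 difference from them over 9860 genes was 0.407 and 0.477 in footprints, against 0.118 to 0.234 within the other groups and 0.166 between BM day 10 mice 2 and 3. Where leaving it out changed the call of a member, the value without it is given too. The summed RNA level of 6 hepatocyte markers (Alb, Apoa1, Ttr, Hnf4a, Serpina1c, Cps1) was 81800 to 92900 CPM in WT, 63200 to 82400 in B, 51200 to 68900 in M and 31000 to 38800 in BM at day 4. At day 10 it was 87500 to 89700 in WT, 30800 to 37200 in B, 39200 to 48300 in M and 29400 to 37100 in BM. The summed RNA of 5 Kupffer cell markers was 190 to 225 CPM in WT and 235 to 291 in BM at day 10, that of 5 endothelial markers 344 to 367 and 210 to 265, and that of 5 stellate cell markers 458 to 554 and 199 to 237. Cholangiocyte markers (84.7 to 142 in WT, 104 to 131 in BM) and blood cell markers (304 to 486 and 158 to 597) overlapped at day 10, and no marker was at 0 throughout. At day 4 these sums were lower in BM than in WT for Kupffer cells (82.7 to 104 against 191 to 229), endothelial cells (196 to 229 against 311 to 332), stellate cells (225 to 279 against 424 to 455) and blood cells (124 to 184 against 291 to 305), and overlapped for cholangiocytes (80.2 to 117 against 103 to 185). In the single mutants, endothelial sums were 281 to 304 in B and 216 to 279 in M at day 4, and 249 to 300 and 230 to 260 at day 10, all below WT. Stellate sums were 389 to 429 in B, which overlapped WT, and 313 to 363 in M at day 4, and 243 to 283 and 338 to 373 at day 10, which did not overlap it. Kupffer cell sums were 135 to 164 in B and 122 to 331 in M at day 4, and 209 to 229 and 158 to 270 at day 10, and overlapped WT except in B at day 4. Blood cell sums were 210 to 453 in B and 175 to 231 in M at day 4, and 461 to 583 and 188 to 296 at day 10, lower than WT in M at both days. Cholangiocyte sums, 94.2 to 136 over the B and M mice of both days, overlapped WT. The part of these shifts in the differences below was not tested, and in whole liver fewer cells of a type cannot be told apart from less RNA per cell.

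In WT liver the inhibitor Deptor and the GTPase Rheb were the most densely covered members. Per kilobase of the counted coding sequence, footprint levels at day 4 averaged 162 CPM ± 5.92 (SD, n = 3) for Deptor and 93.7 ± 12.9 for Rheb. They were 70.7 ± 8.58 for Eif4ebp1, 18.8 ± 2.44 for Akt1s1, 15.7 ± 0.973 for Mtor, 11.7 ± 1.05 for Tsc2, 10.3 ± 0.433 for Rptor, 7.49 ± 1.47 for Mlst8, 7.12 ± 0.836 for Rictor and 3.83 ± 0.64 for Tsc1. The mice of Akt1s1 and Mtor overlapped (16.2 to 21.1 against 15.1 to 16.8), as did those of Mlst8 and Rictor (6.24 to 9.11 against 6.58 to 8.08). Every other pair of neighbours in this order was separated in all mice. The RNA order was led by the same genes, at 65.6 TPM (length-scaled abundance) ± 6.93 for Deptor, 33.3 ± 1.63 for Rheb and 17.0 ± 1.53 for Eif4ebp1, and ended with Tsc1 (4.39 ± 0.376), Rptor (4.25 ± 0.505) and Mlst8 (2.28 ± 0.592). Precision differed between members. Mtor had 937 to 2419 footprint counts a mouse, whereas Mlst8 had 49 to 172, and its RNA counts lay between 9 and 47.

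Against WT, Eif4ebp1 and Deptor were the members that changed most often, and the combined genotype held most of the changes. A gene was called where the adjusted p of edgeR's quasi-likelihood test, corrected over all genes tested, fell under 0.1. In footprints at day 4, 0 of 10 members were called in B, where 12.5% of all genes were, 1 in M (33.3% of all genes) and 3 in BM (50.9%). For B, 1 member had an unadjusted p under 0.05, and DESeq2 called 0. At day 10 the footprint calls were 1 in B (25.2%), 1 in M (19.4%) and 2 in BM (46.8%). In RNA at day 4 they were 0 in B (8.14%; 0 members with an unadjusted p under 0.05 and 0 calls by DESeq2), 4 in M (23.7%) and 2 in BM (41.9%). In RNA at day 10 they were 2 in B (15.6%), 1 in M (15.7%) and 5 in BM (45.7%). In BM the members' shares lay below those of all genes in footprints and in day 4 RNA, and near it in day 10 RNA. In BM footprints the median log2 change of the 10 was 0.0 and 0.11 at the early and late day, beside 0.0 and 0.03 over all genes. Leaving out BM day 10 mouse 1 raised the day 10 BM footprint count from 2 to 5, and the share of all genes to 66.3%. In RNA the count was 5 again, with 57.1% of all genes.

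**Figure D1:**
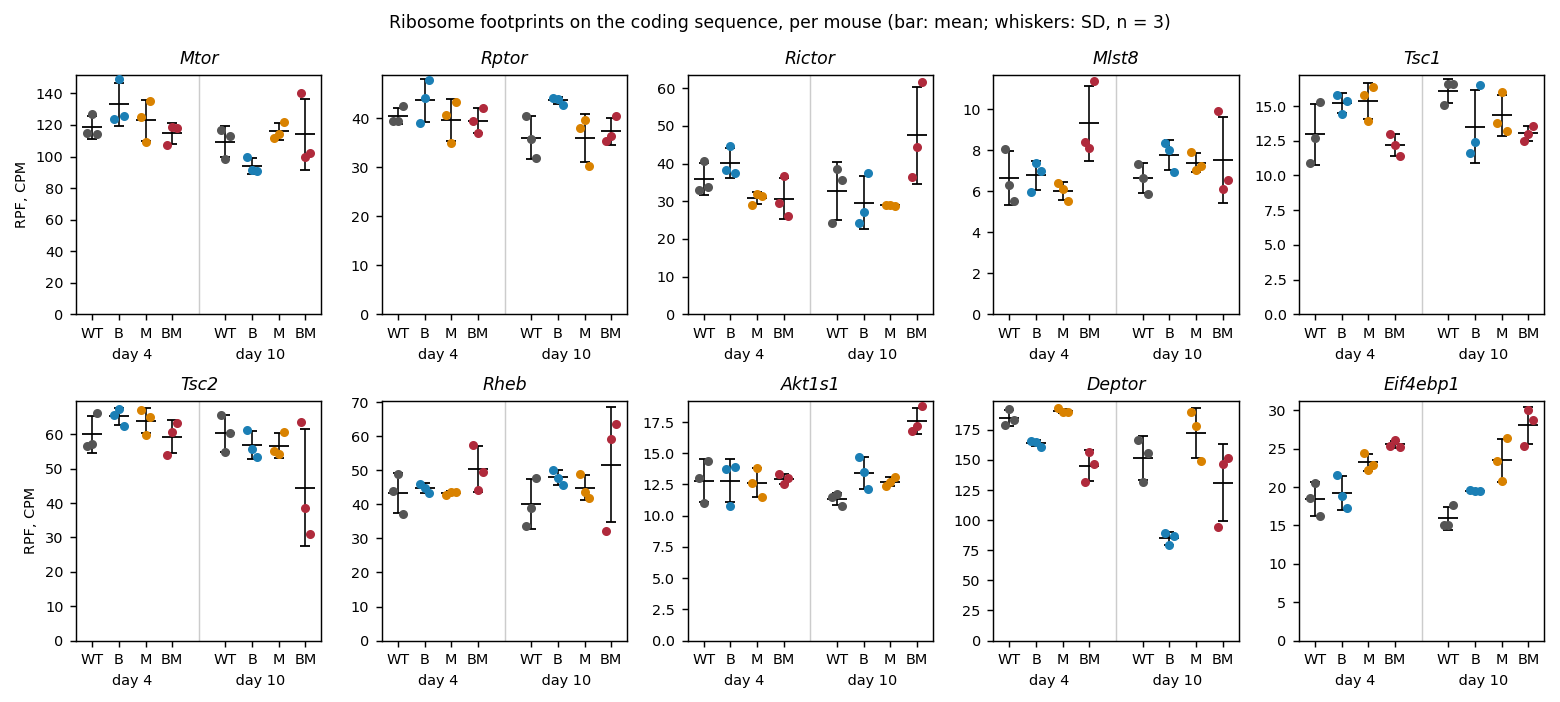
Footprint level (CPM, vertical axis) of each member in each mouse (points), by genotype and day, with the mean (bar) and SD (whiskers, n = 3). Eif4ebp1 is above 20.6 CPM, the highest WT value, in all 12 M and BM mice, and Deptor is lowest in B at day 10 (79.2 to 89.5 CPM).

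Eif4ebp1 (GRCm39 chr8:27750350-27805206, plus strand, 3 exons), the translation repressor 4E-BP1, rose in both genotypes that carry the MYC allele, in footprints at both days and in RNA except in BM at day 4. Footprint levels at day 4 were 18.6, 20.6 and 16.2 CPM in WT, 21.6, 18.8 and 17.3 in B, 24.5, 22.3 and 22.9 in M, and 25.4, 26.1 and 25.3 in BM. At day 10 they were 15.0, 15.1 and 17.7 in WT, 19.6, 19.5 and 19.5 in B, 23.4, 20.8 and 26.4 in M, and 25.4, 30.0 and 28.8 in BM. No M or BM mouse overlapped a WT mouse of its day, and the B mice overlapped WT at day 4 but not at day 10. Relative to WT, the log2 change at day 4 was 0.37 ± 0.11 (SE, n = 3; adjusted p = 0.0339) in M and 0.50 ± 0.109 (adjusted p = 0.00351) in BM. At day 10 it was 0.56 ± 0.128 (adjusted p = 0.0265) in M and 0.81 ± 0.159 (adjusted p = 0.00714) in BM. In B it was 0.05 ± 0.131 (adjusted p = 0.898) and 0.28 ± 0.12 (adjusted p = 0.14). The M call at day 4 was lost without WT mouse 3 (adjusted p = 0.117) or M mouse 1 (adjusted p = 0.141) and with DESeq2. RNA at day 10 was at 31.9, 29.2 and 27.7 CPM in WT, 34.8, 32.2 and 38.3 in B, 38.1, 43.6 and 37.2 in M, and 50.1, 56.4 and 72.2 in BM. The BM change in RNA was 0.26 ± 0.135 (adjusted p = 0.161) at day 4 and 1.0 ± 0.163 (adjusted p = 0.00197) at day 10. In M it was 0.34 ± 0.11 (adjusted p = 0.0465) at day 4 and 0.42 ± 0.121 (adjusted p = 0.05) at day 10. Both M calls were lost with DESeq2 (adjusted p = 0.189 and 0.169) and when 1 of 4 mice was left out, with adjusted p of 0.103 to 0.124 without WT mouse 1 or 3 or M mouse 2 or 3 at day 4, and of 0.108 to 0.167 without WT mouse 2 or 3 or M mouse 1 or 2 at day 10. The day 10 call was also lost with all genotypes in 1 fit (adjusted p = 0.168).

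Deptor (chr15:54975710-55122667, plus strand, 9 exons), an inhibitor found in both complexes, fell in B at day 10, and in BM in footprints at day 4 and in RNA at day 10. Its footprint levels at day 10 were 167, 132 and 156 CPM in WT, 89.5, 79.2 and 86.5 in B, 190, 178 and 149 in M, and 94.6, 147 and 152 in BM. Its RNA was at 403, 336 and 385 CPM in WT, 146, 193 and 208 in B, 444, 420 and 336 in M, and 215, 263 and 244 in BM. The B mice lay below every WT mouse in both assays, and the BM mice did so in RNA but not in footprints. In B the log2 change was -0.85 ± 0.122 (SE; adjusted p = 0.00242) in footprints and -1.03 ± 0.161 (adjusted p = 0.00198) in RNA. In BM at day 10 it was -0.65 ± 0.138 (adjusted p = 0.00682) in RNA and -0.22 ± 0.215 (adjusted p = 0.441) in footprints, where it was -0.03 ± 0.13 (adjusted p = 0.85) without BM mouse 1. At day 4, footprints were at 179, 192 and 183 CPM in WT, 166, 165 and 161 in B, 193, 190 and 190 in M, and 132, 157 and 147 in BM, and fell by 0.32 ± 0.0858 on the log2 scale in BM (adjusted p = 0.011). RNA at day 4 was at 357, 320 and 341 CPM in WT and 302, 362 and 316 in BM, a log2 change of -0.05 ± 0.1 (adjusted p = 0.723). In M, RNA rose at day 4 (430, 432 and 402 CPM; 0.31 ± 0.0894, adjusted p = 0.0266), a call lost without M mouse 1 (adjusted p = 0.11). Against M, BM was lower in footprints at day 4 (-0.41 ± 0.0805, adjusted p = 0.00449) and in RNA at both days (-0.37 ± 0.0919, adjusted p = 0.0106, and -0.72 ± 0.151, adjusted p = 0.0118).

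**Figure D2:**
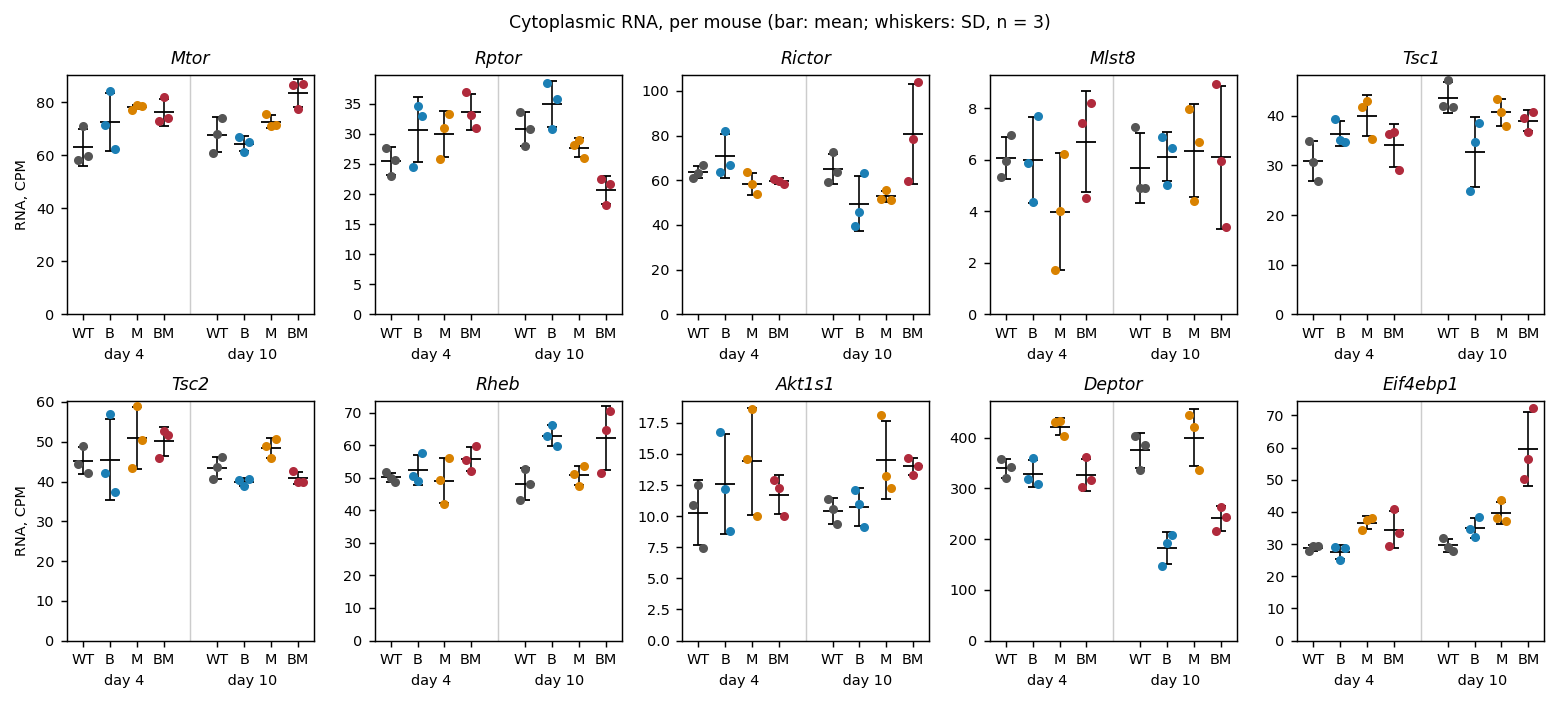
Cytoplasmic RNA level (CPM, vertical axis) of each member in each mouse (points), by genotype and day, with the mean (bar) and SD (whiskers, n = 3). Rptor in BM lies above WT at day 4 (31.0 to 36.9 against 23.0 to 27.6 CPM) and below it at day 10 (18.1 to 22.5 against 28.0 to 33.7).

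Rptor (chr11:119493731-119790402, plus strand, 34 exons), the scaffold that brings substrates to complex 1, differed in RNA between BM and WT in opposite directions at the 2 days, while its footprints did not pass the test at either. RNA was at 27.6, 23.0 and 25.7 CPM in WT and 36.9, 33.2 and 31.0 in BM at day 4, and at 33.7, 28.0 and 30.9 in WT and 22.5, 18.1 and 21.6 in BM at day 10. BM and WT mice did not overlap at either day. The WT mice of day 10 also lay above those of day 4, a difference that was not tested. For BM over WT the log2 change came to 0.41 ± 0.124 (SE; adjusted p = 0.0206) at day 4 and -0.58 ± 0.155 (adjusted p = 0.0187) at day 10. Footprints were at 39.4, 39.5 and 42.4 CPM in WT and 39.4, 37.0 and 42.1 in BM at day 4, and at 40.5, 35.8 and 31.8 in WT and 35.3, 36.3 and 40.5 in BM at day 10. Their log2 changes were -0.01 ± 0.0888 (adjusted p = 0.938) and 0.04 ± 0.154 (adjusted p = 0.864). At day 10, BM also had less Rptor RNA than B (-0.74 ± 0.173, adjusted p = 0.015) and M (-0.40 ± 0.15, adjusted p = 0.0863). The call against M was lost with DESeq2 (adjusted p = 0.206) and without M mouse 1 or 2 or BM mouse 2 or 3 (adjusted p = 0.16 to 0.277). In B and M no Rptor call was made against WT in footprints or RNA. The gene's exons overlap Gm69672 on the same strand.

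Mtor (chr4:148533015-148642141, plus strand, 58 exons), the kinase itself, had 3 upward calls in RNA, none in footprints, and a lower ratio of footprints to RNA in BM at day 4 that was called when the 2 libraries of a mouse were paired and not otherwise. RNA at day 4 was at 58.3, 70.9 and 59.7 CPM in WT, 77.2, 78.8 and 78.6 in M, and 72.7, 82.1 and 73.9 in BM. M and BM mice lay above every WT mouse. The log2 change was 0.31 ± 0.099 (SE; adjusted p = 0.044) in M and 0.28 ± 0.105 (adjusted p = 0.0559) in BM, and DESeq2 gave adjusted p of 0.124 and 0.13. Both were lost without WT mouse 1 or 3 (adjusted p = 0.151 and 0.158 in M, 0.179 and 0.173 in BM), the M call also without M mouse 1 (adjusted p = 0.116) and the BM call without BM mouse 2 (adjusted p = 0.151). Its footprints were at 115, 127 and 114 CPM in WT and 107, 119 and 118 in BM at day 4, a log2 change of -0.02 ± 0.0836 (adjusted p = 0.835). At day 10, BM footprints were at 140, 100.0 and 102 CPM and WT at 117, 98.4 and 113, which overlap. RNA at day 10 was at 86.3, 77.5 and 86.8 CPM in BM and 66.9, 61.1 and 65.1 in B, a rise of 0.39 ± 0.145 (adjusted p = 0.0794) that was lost with DESeq2 (adjusted p = 0.161), without the low-count filter (adjusted p = 0.162) and without any 1 B mouse or BM mouse 2 or 3 (adjusted p = 0.112 to 0.233).

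Rictor (chr15:6737860-6829882, plus strand, 38 exons), the defining subunit of complex 2, and Mlst8 (chr17:24692524-24698057, minus strand, 9 exons), the subunit of both complexes, had calls in BM, Rictor at both days and Mlst8 at day 4. Rictor footprints at day 10 were 24.1, 38.7 and 35.6 CPM in WT, 24.2, 27.1 and 37.6 in B, 29.1, 28.9 and 28.8 in M, and 36.4, 44.5 and 61.7 in BM. BM mice lay above every M mouse and overlapped B and WT. The log2 change of BM was 0.70 ± 0.211 (SE; adjusted p = 0.0541) against M, 0.70 ± 0.253 (adjusted p = 0.0798) against B and 0.52 ± 0.25 (adjusted p = 0.134) against WT. Without BM mouse 1, it was 0.69 ± 0.197 against WT (adjusted p = 0.011), and RNA rose there too (0.47 ± 0.147, adjusted p = 0.0193). The calls against M and B were lost without BM mouse 2 or 3 (adjusted p = 0.116 to 0.231), without any 1 M mouse (adjusted p = 0.128 to 0.16), and without B mouse 1 or 2 (adjusted p = 0.22 to 0.224). Rictor RNA followed at 59.6, 78.6 and 104 CPM in BM against 51.4, 55.6 and 51.2 in M (0.63 ± 0.193, adjusted p = 0.0466), a call lost without any 1 M mouse or BM mouse 2 or 3 (adjusted p = 0.11 to 0.148). Against B (39.4, 45.8 and 63.4 CPM) the RNA rise was 0.72 ± 0.245 (adjusted p = 0.0627), lost without B mouse 1 or 2 or BM mouse 2 or 3 (adjusted p = 0.137 to 0.222). At day 4 the direction was the other way in footprints, with 29.5, 36.7 and 26.0 CPM in BM and 38.2, 44.8 and 37.5 in B (-0.35 ± 0.132, adjusted p = 0.0644), lost without B mouse 2 or BM mouse 1 or 3 (adjusted p = 0.15 to 0.226). Mlst8 footprints at day 4 were 8.09, 6.31 and 5.54 CPM in WT and 8.43, 8.12 and 11.4 in BM, and rose by 0.50 ± 0.19 (adjusted p = 0.055). That call was lost without WT mouse 2 or 3 or BM mouse 3 (adjusted p = 0.124 to 0.206). Against M (6.41, 6.13 and 5.54 CPM) the rise was 0.61 ± 0.163 (adjusted p = 0.02) and held in every alternative tried. Against B (5.98, 7.37 and 6.98 CPM) it was 0.50 ± 0.168 (adjusted p = 0.0431), lost without B mouse 1 or BM mouse 3 (adjusted p = 0.125 and 0.14). At day 10 the BM mice were at 9.92, 6.13 and 6.53 CPM, against 7.35, 6.65 and 5.89 in WT. Mlst8 has 6 isoforms, of which the one used for footprints held 11.9% of its RNA counts, and its exons overlap Bricd5 on the other strand.

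Tsc2 (chr17:24814783-24852192, minus strand, 40 exons), the GTPase-activating subunit of the TSC complex for Rheb, did not pass the test against WT with all mice. Footprints at day 10 were 65.8, 55.0 and 60.3 CPM in WT and 63.7, 38.6 and 31.1 in BM, so that BM mice 2 and 3 lay below every other mouse and mouse 1 within the WT range. With all 3 the log2 change was -0.45 ± 0.258 (SE; adjusted p = 0.197), and without mouse 1 it was -0.80 ± 0.14 (adjusted p = 0.000564). RNA was at 40.6, 43.6 and 46.2 CPM in WT and 42.7, 39.9 and 40.0 in BM (-0.09 ± 0.126, adjusted p = 0.597). Exons of Tsc2 overlap Pkd1 and Nthl1 on the other strand, and its footprint isoform held 25.0% of its RNA counts. Tsc1 (chr2:28531061-28581179, plus strand, 23 exons), the stabilising partner, was lower in BM than in either single mutant at day 4. Its footprints were 13.0, 12.2 and 11.4 CPM in BM, 15.8, 14.4 and 15.4 in B, 15.8, 13.9 and 16.4 in M, and 10.9, 12.7 and 15.3 in WT. The WT mice spanned those of BM, and BM against WT gave -0.06 ± 0.141 (adjusted p = 0.77). The change was -0.34 ± 0.108 (adjusted p = 0.0379) against M and -0.28 ± 0.104 (adjusted p = 0.0621) against B, with DESeq2 adjusted p of 0.116 and 0.204. The first was lost without M mouse 1 or 3 or BM mouse 3 (adjusted p = 0.102 to 0.13) and the second without B mouse 1 or 3 or BM mouse 2 or 3 (adjusted p = 0.124 to 0.224). Tsc1 RNA rose in M at day 4 (41.8, 42.9 and 35.3 CPM against 35.0, 30.7 and 26.9 in WT; 0.38 ± 0.126, adjusted p = 0.0526), a call lost with DESeq2 (adjusted p = 0.15), with RNA of the footprint isoform alone and without WT mouse 3 or M mouse 1 or 2 (adjusted p = 0.153 to 0.212).

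Rheb (chr5:25007821-25047622, minus strand, 8 exons), the GTPase that switches complex 1 on, had RNA calls against WT in B and BM at day 10, both near the threshold and held in 6 and 3 of the 12 alternatives tried. RNA was at 43.1, 52.8 and 48.1 CPM in WT, 62.8, 66.1 and 59.8 in B, 51.1, 47.6 and 53.5 in M, and 51.3, 64.7 and 70.6 in BM. The B mice lay above every WT mouse, and BM mouse 1 fell within the WT range. The log2 change was 0.39 ± 0.131 (SE; adjusted p = 0.0828) in B and 0.36 ± 0.156 (adjusted p = 0.0997) in BM, where DESeq2 gave adjusted p of 0.183 and 0.193 and no low-count filter 0.123 and 0.127. The BM call was also lost with RLE scaling (adjusted p = 0.108) and with RNA of the footprint isoform alone (adjusted p = 0.105). The B call was lost without WT mouse 1 or 3 or B mouse 1 or 2 (adjusted p = 0.106 to 0.271), and the BM call without any 1 WT mouse or BM mouse 2 or 3 (adjusted p = 0.145 to 0.33). Footprints were at 33.6, 38.9 and 47.9 CPM in WT and 32.3, 59.3 and 63.5 in BM at day 10. The change was 0.35 ± 0.271 (adjusted p = 0.333) with all BM mice and 0.61 ± 0.148 (adjusted p = 0.00461) without mouse 1. Since M and BM carry a MYC transgene, the RefSeq promoter windows (GRCm38.p6, 250 bases before to 50 after the gene start) were searched on both strands for CACGTG, the palindromic E-box that MYC with MAX is known to bind. Of 8 members with a window, Rheb alone held it, as did 7.15% of all 32851 windows. The stretch from position -156 to -31 of the Rheb start is shown because it holds that match, in capitals (GRCm38.p6 chr5:24842392-24842517, minus strand).
Rheb: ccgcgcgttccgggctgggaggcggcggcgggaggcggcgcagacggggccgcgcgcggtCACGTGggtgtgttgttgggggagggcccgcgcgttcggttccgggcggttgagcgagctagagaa
The match at -96 to -91 is a description of the letters. In M, Rheb RNA changed by -0.03 ± 0.116 (adjusted p = 0.879) at day 4 and 0.08 ± 0.115 (adjusted p = 0.716) at day 10.

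Akt1s1 (chr7:44498415-44504908, plus strand, 5 exons), encoding PRAS40, was called against WT in BM at day 10 only. Footprints at day 4 lay between 10.8 and 14.4 CPM in all 4 genotypes. At day 10 they were 11.5, 11.7 and 10.8 CPM in WT, 14.7, 13.5 and 12.1 in B, 12.4, 12.7 and 13.1 in M, and 16.8, 17.2 and 18.8 in BM. BM mice lay above every mouse of the other genotypes. B and M mice also lay above every WT mouse. Their log2 changes, 0.23 ± 0.129 in B (adjusted p = 0.262) and 0.17 ± 0.114 in M (adjusted p = 0.377), did not pass the test. Set against WT, the log2 change was 0.04 ± 0.126 (SE; adjusted p = 0.836) at day 4 and 0.62 ± 0.156 (adjusted p = 0.018) at day 10, the latter called in every alternative tried. Against M it was 0.44 ± 0.146 (adjusted p = 0.0669), lost without any 1 M mouse or BM mouse 2 or 3 (adjusted p = 0.126 to 0.212). Against B it was 0.40 ± 0.159 (adjusted p = 0.0993), lost with DESeq2 (adjusted p = 0.112), without the low-count filter (adjusted p = 0.127) and without any 1 B mouse or BM mouse 2 or 3 (adjusted p = 0.157 to 0.239). RNA at day 10 was at 11.4, 10.6 and 9.33 CPM in WT and 14.7, 13.3 and 14.0 in BM (0.42 ± 0.174, adjusted p = 0.0917), a call lost with DESeq2 (adjusted p = 0.262), without the low-count filter (adjusted p = 0.154), with RNA of the footprint isoform alone (adjusted p = 0.14) and without any 1 of these 6 mice (adjusted p = 0.132 to 0.271). Its exons overlap Tbc1d17 on the other strand, and the footprint isoform held 41.4% of its RNA counts.

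**Figure D3:**
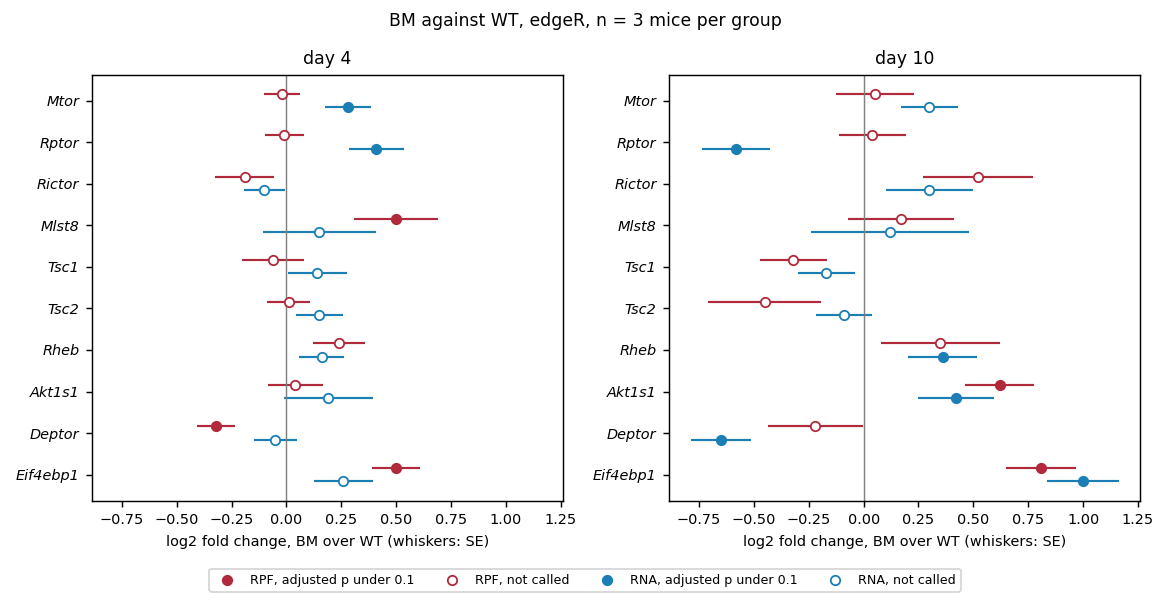
Log2 fold change of BM over WT (horizontal axis) with its SE (whiskers, n = 3 mice per group) for the 10 members at day 4 (left) and day 10 (right), in footprints and RNA, with filled points for adjusted p under 0.1. Rptor RNA is right of 0 at day 4 (0.41) and left of it at day 10 (-0.58), while its footprint points stay at -0.01 and 0.04.

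Adding an allele to a single mutant changed a minority of the members. At day 4, BM against M gave 3 footprint calls (38.2% of all genes) and 1 RNA call (30.5%), and BM against B gave 4 (44.7%) and 1 (34.8%). At day 10, BM against M gave 2 footprint calls (32.7%) and 4 RNA calls (32.9%), and BM against B gave 4 (36.5%) and 4 (31.8%). Shares of members were thus near or below those of all genes. Without BM day 10 mouse 1 the day 10 counts were 5 and 6 against M, in footprints and RNA, where 59.2% and 50.4% of all genes were called, and 6 and 5 against B (61.0% and 46.3%), with Tsc2 lower (-0.67, adjusted p = 0.00514 against M and 0.00382 against B) and Rheb higher (0.49, adjusted p = 0.00951, and 0.39, adjusted p = 0.0166) in footprints in both. In RNA that setting also called Tsc2 (-0.27, adjusted p = 0.0875) and Rheb (0.42, adjusted p = 0.0116) against M and Deptor (0.49, adjusted p = 0.0447) against B. Besides the calls given above, Eif4ebp1 was higher in BM than in B in footprints at both days (0.45 ± 0.105, adjusted p = 0.00816, and 0.54 ± 0.148, adjusted p = 0.0369) and in RNA at day 10 (0.78 ± 0.18, adjusted p = 0.015). Its day 4 RNA call against B (0.34 ± 0.135, adjusted p = 0.0841) was lost with DESeq2 (adjusted p = 0.196) and without any 1 B mouse or BM mouse 2 or 3 (adjusted p = 0.11 to 0.281). Against M, the Eif4ebp1 footprint changes of 0.12 ± 0.0885 (adjusted p = 0.33) and 0.24 ± 0.155 (adjusted p = 0.292) did not pass, while its day 10 RNA change did (0.60 ± 0.162, adjusted p = 0.0297). Without BM day 10 mouse 1, the day 10 footprint change against M was 0.35 ± 0.128 and was called (adjusted p = 0.0545). The day 10 footprint call against B was lost without B mouse 1 or 2 or BM mouse 2 (adjusted p = 0.114 to 0.128), and the day 10 RNA call against M without M mouse 1 or 3 (adjusted p = 0.114). Deptor footprints at day 10 were higher in BM than in B (0.64 ± 0.213, adjusted p = 0.0617), a call lost without any 1 B mouse or BM mouse 2 or 3 (adjusted p = 0.14 to 0.19) and at 0.85 ± 0.111 without BM mouse 1 (adjusted p = 0.000516).

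The BM effect differed between day 10 and day 4 for 4 members. The difference of the log2 changes against WT was called for 1 member in footprints (35.7% of all genes) and 3 in RNA (29.9%). Akt1s1 footprints rose more at day 10, by 0.59 ± 0.181 (SE; adjusted p = 0.0314). In RNA, the difference was -0.99 ± 0.193 (adjusted p = 0.00245) for Rptor, -0.60 ± 0.17 (adjusted p = 0.0219) for Deptor and 0.74 ± 0.215 (adjusted p = 0.0249) for Eif4ebp1. These 4 were called in every alternative tried. The comparison shares its WT and BM mice with the comparisons at each day. Leaving out BM day 10 mouse 1 raised the footprint count from 1 to 5, adding Rictor (0.87), Tsc2 (-0.83), Mlst8 (-0.60) and Eif4ebp1 (0.37), and the RNA count from 3 to 4, adding Rictor (0.57). In that setting 57.3% of all genes were called in footprints and 43.5% in RNA.

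Translation efficiency (TE), the change in footprints beyond the change in RNA, was tested as an interaction over both libraries of each mouse. Without a block, no member was called in any of the 10 comparisons of genotypes by edgeR or DESeq2. The shares of all genes called were also small. At day 4 they were 0.0488% in B, 0.971% in M and 2.23% in BM against WT, 0.0943% in BM against M and 1.12% in BM against B. At day 10 they were 0.0564%, 0.0%, 0.259%, 0.132% and 0.169% in the same order. An unadjusted p under 0.05 was reached by 1 member in M and 2 in BM at day 4, and by 1 in BM against WT and 1 in BM against B at day 10, and by 0 in the other 6. With the mouse as a block, which pairs the 2 libraries of an animal, 2 members were called in BM at day 4, where 6.17% of all genes were. These were Rptor (-0.43, adjusted p = 0.0875 with the block and 0.237 without) and Mtor (-0.31, adjusted p = 0.0934 and 0.42), both lower. The ratio of footprints to RNA of Rptor was 0.51, 0.78 and 0.72 (log2) in WT and 0.09, 0.16 and 0.44 in BM at day 4, and 0.26, 0.36 and 0.04 in WT and 0.65, 1.0 and 0.91 in BM at day 10. BM thus lay below every WT mouse at day 4 and above at day 10. The WT mice moved as well, with no overlap between the days. Their mean was 0.67 at day 4 and 0.22 at day 10, and that of BM was 0.23 and 0.85. WT at day 10 was not tested against WT at day 4.

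The change between days of the TE difference of BM from WT was 1.05 ± 0.241 for Rptor (adjusted p = 0.0863, or 0.0296 with the mouse as a block), the 1 member called in TE, where 0.31% of all genes were. It was lost without the low-count filter (adjusted p = 0.129), with RNA of the footprint isoform alone (adjusted p = 0.101) and without any 1 mouse other than BM day 10 mouse 1 (adjusted p = 0.115 to 0.314), and it was 1.16 without that mouse (adjusted p = 0.00429). The size of the change stayed between 0.96 and 1.16. Deptor had 0.71 ± 0.292 (adjusted p = 0.595), with 0.091 under the block, where 1.87% of all genes were called, and 0.82 without BM day 10 mouse 1 (adjusted p = 0.019). Its log2 ratio at day 10 was -1.27, -1.35 and -1.3 in WT and -1.18, -0.84 and -0.68 in BM. Without BM day 10 mouse 1, TE at day 10 against WT was called for Rptor (0.71, adjusted p = 0.0359), Deptor (0.52, adjusted p = 0.062) and Tsc2 (-0.69, adjusted p = 0.0248), and against B for Rptor (0.64, adjusted p = 0.0649) and Tsc2 (-0.71, adjusted p = 0.0337). The shares of all genes called in TE without that mouse were 21.5% against WT, 15.0% against B and 13.2% between days.

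**Figure D4:**
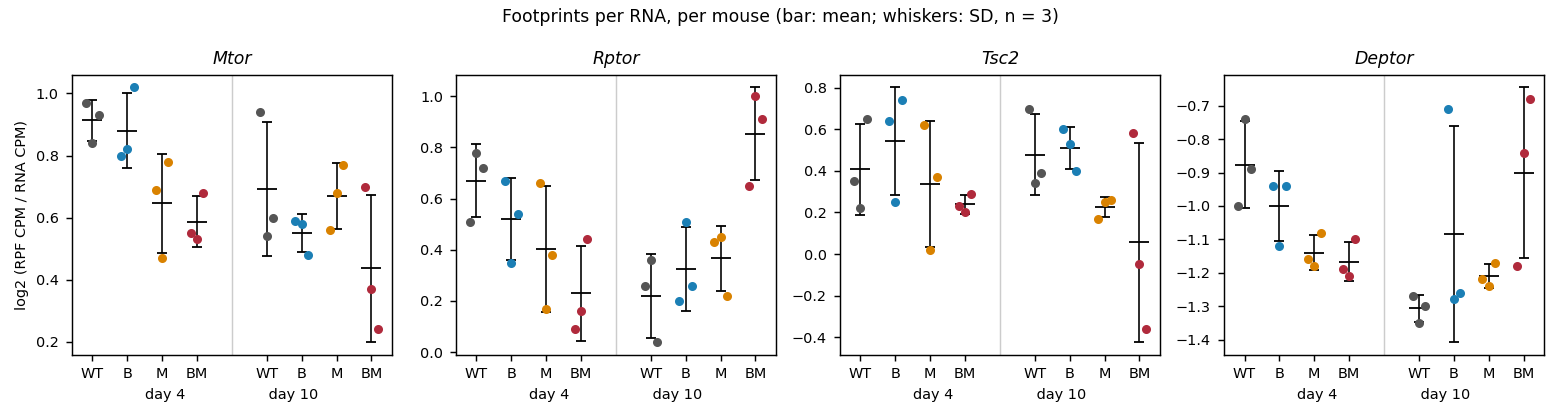
Log2 ratio of footprint to RNA CPM (vertical axis, not starting at 0) in each mouse (points) for Mtor, Rptor, Tsc2 and Deptor, by genotype and day, with the mean (bar) and SD (whiskers, n = 3). Rptor in BM is at 0.09 to 0.44 at day 4 and 0.65 to 1.0 at day 10, and 1 of the 3 BM mice is apart for Tsc2 at day 10 (0.58 against -0.05 and -0.36).

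The wider pathway, 97 genes outside the members, was also mixed in BM. In footprints 27 of 92 tested rose and 17 fell at day 4, and 23 and 14 of 91 did so at day 10. Over all genes, 26.2% rose and 24.7% fell at day 4, and 24.5% and 22.3% at day 10. In RNA 23 of 90 rose and 13 fell at day 4, and 32 and 14 of 91 at day 10, beside 21.3% and 20.6% of all genes at day 4 and 22.9% and 22.8% at day 10. Of the 31 genes of amino acid sensing at the lysosome (such as Rag GTPases, Ragulator and Sestrins), 6 of 28 rose and 4 fell in footprints at day 4, and 9 and 3 of 27 at day 10. Of 17 genes of the insulin and PI3K input, 2 rose and 3 fell at day 4, and 1 and 4 at day 10. Of 10 tested genes of the energy and stress input (AMPK, LKB1 and the REDD proteins), 2 rose and 2 fell at day 4, and 3 and 0 at day 10. Of 22 substrates and outputs, 7 rose and 8 fell at day 4, and 6 and 7 at day 10. Of 2 tested subunits of complex 2 outside the members, 0 were called at either day. The TOP mRNAs, whose translation complex 1 is known to control, moved in RNA as well. Of 13 outside the ribosomal proteins, 10 rose and 0 fell in footprints and 8 rose and 0 fell in RNA at day 4, and 4 and 11 rose and 0 fell at day 10. In M against WT, 6 and 9 rose at day 4 and 1 and 9 at day 10. In B, 0 and 0 rose at day 4 and 2 and 1 at day 10, and 0 fell in either. In TE in BM, 3 of the 13 rose at day 4 (median log2 change 0.16) and 0 at day 10 (median -0.30), beside 0.01 and 0.03 over all genes, and the median difference between the days was -0.72 with 0 calls, beside 0.04. Of all genes, 2.23% were called in TE at day 4, 0.259% at day 10 and 0.31% between the days. Of the ribosomal protein genes, 77 of 81 rose and 0 fell in footprints at day 4 and 52 and 0 at day 10, with 79 of 85 up and 1 down in RNA at day 4 and 81 and 0 at day 10. In M, 75 rose in footprints and 78 in RNA at day 4, and 1 and 77 at day 10. In B, 0 and 0 rose at day 4, and 1 and 0 at day 10. BM over M at day 4 gave 35 higher in footprints, and 2 higher and 3 lower in RNA. Of all genes, in either direction, 33.3% and 23.7% were called in M at day 4 and 19.4% and 15.7% at day 10. In B they were 12.5% and 8.14%, then 25.2% and 15.6%, and in BM over M at day 4 38.2% and 30.5%. Of the 81 tested for TE in BM against WT, 1 was called higher at day 4 (median log2 change 0.05, beside 0.01 over all genes) and 0 at day 10 (median -0.35, beside 0.03). The day 10 list values include BM mouse 1 and were not worked out without it. Without that mouse, 21.5% of all genes were called in TE against WT.

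The pathway genes below were named for the size of their called change in BM. Ddit4 (REDD1), a stress-induced protein that acts through the TSC complex, had footprints of 10.1, 7.57 and 6.13 CPM in WT and 60.2, 213 and 245 in BM at day 10, a log2 rise of 4.42 ± 0.538 (SE; adjusted p = 0.00118), and its RNA rose by 4.01 ± 0.543 (adjusted p = 0.000819). Its BM mouse 1 was the lowest of the 3, and at day 4 its footprint change was -0.19 ± 0.209 (adjusted p = 0.492). The related Ddit4l (REDD2) rose at day 4, by 2.64 ± 0.27 in footprints (adjusted p = 1.89e-05) from 0.85 to 1.66 CPM in WT to 6.55 to 10.3 in BM, and by 2.36 ± 0.309 in RNA (adjusted p = 4.24e-05), and its footprint change at day 10 was 0.21 ± 1.03 (adjusted p = 0.886). That day 10 value averages BM mice on both sides of WT, at 4.47, 0.0776 and 0.33 CPM against 0.841 to 2.05. Eif4ebp3, a relative of Eif4ebp1, fell in footprints at day 4 (-1.86 ± 0.383, adjusted p = 0.00234) and rose at day 10 in footprints (3.68 ± 0.733, adjusted p = 0.00737) and RNA (3.42 ± 0.591, adjusted p = 0.00256). At day 10 its BM mice were at 36.4, 282 and 287 footprint CPM. Lpin1, a phosphatidate phosphatase and substrate of complex 1, fell at day 4 (footprints -1.74 ± 0.286, adjusted p = 0.000535, and RNA -1.69 ± 0.219, adjusted p = 4.04e-05). It rose at day 10, by 3.26 ± 0.762 in footprints (adjusted p = 0.0135) and 3.15 ± 0.691 in RNA (adjusted p = 0.00779), with BM mice at 105, 807 and 1330 footprint CPM against 61.6 to 86.2 in WT. The adaptor Grb10 fell in RNA at day 4 (-1.28 ± 0.247, adjusted p = 0.00108) and was at -0.40 ± 0.224 at day 10 (adjusted p = 0.198). At day 10 the lipogenic factor Srebf1 fell (footprints -1.94 ± 0.706, adjusted p = 0.0633; RNA -1.87 ± 0.373, adjusted p = 0.00509), and at day 4 its footprint change was 0.08 ± 0.212 (adjusted p = 0.799). Its BM mice at day 10 were at 141, 25.6 and 18.4 footprint CPM, against 189 to 301 in WT. Of the TOP mRNAs, Hnrnpa1 rose by 1.73 ± 0.112 in footprints at day 4 (adjusted p = 7.76e-07) and by 1.75 ± 0.195 in TE (adjusted p = 0.000119), Eef1g by 0.98 ± 0.174 in TE (adjusted p = 0.00602) and Eef1b2 by 1.09 ± 0.103 in RNA (adjusted p = 2.26e-06). At day 10 the TE changes of Hnrnpa1 (0.52 ± 0.272, adjusted p = 0.554) and Eef1g (0.17 ± 0.342, adjusted p = 0.91) did not pass the test, while Hnrnpa1 footprints (1.17 ± 0.157, adjusted p = 0.00167) and Eef1b2 RNA (1.44 ± 0.127, adjusted p = 0.000101) rose. For Eef1b2 the BM footprints at day 10 were 359, 105 and 138 CPM against 94.8 to 115 in WT. Its BM RNA was at 549, 585 and 569 CPM. Eef1g footprints were 202, 92.4 and 120 CPM in BM and 87.7 to 103 in WT. Hnrnpa1 footprints were 187, 155 and 177 CPM in BM and 67.1 to 84.9 in WT. BM mouse 1 was the highest BM mouse in footprints of each. Hnrnpa1 has processed pseudogenes that can share its reads, so its values are uncertain.

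Deptor had the widest range of group means among the members, 1.17 on the log2 footprint scale over 8 groups. The genes whose log2 footprint level tracked it most closely over the 24 mice, among 9860 with at least 10 counts in each, were Bdh2 (Pearson r = 0.913), Slc25a47 (r = 0.908) and Cyp8b1 (r = 0.906). Cyp8b1 is the sterol 12α-hydroxylase of bile acid synthesis, and Slc25a47 a mitochondrial carrier of liver. The points share their libraries and their 8 groups, and the correlations are a description.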

How the data were processed

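Footprints and cytoplasmic RNA of 24 mice were analysed from the deposited tables. Per the labels and methods, the authors trimmed reads with cutadapt 1.18, removed duplicates by molecular identifiers, aligned footprints with BBmap to the most abundant transcript of each gene (GENCODE vM27, GRCm39) and deposited whole counts per coding sequence, leaving out 20 codons at its start and 10 at its end. RNA was aligned with Bowtie2 2.3.5.1 and quantified with RSEM 1.3.3, and the authors deposited expected counts and TPM per isoform. At least 99.92% of the expected counts above 0 were whole numbers. They were rounded after summing isoforms per gene. Symbols and positions came from GENCODE vM39 (GRCm39), which gave a symbol to 20614 of 20622 genes. The strand setting is not given in the sources used here.

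Genes passed edgeR's filterByExpr (minimum count 10, total 15). edgeR 4.0.16 in R 4.3.3 was run on the counts with TMM scaling within each library type, only the compared groups in a fit, Benjamini-Hochberg adjustment over all genes and a threshold of 0.1, the one the study used for TE (there with DESeq2). TE was the interaction of library type with genotype. SE is the size of the log2 change divided by the root of F. The edgeR fits of BM against WT at day 4 were tested on simulated data, the others were not. Alternatives were DESeq2 1.42.0, RLE scaling, no low-count filter, a block (the replicate number in footprints and RNA, the mouse in TE), all genotypes in 1 fit, RNA of the footprint isoform only and each mouse left out. Deviations of the footprint and RNA libraries of a mouse from their group means correlated at 0.183 to 0.612 in all 24 mice, so the block in TE is a pairing within the animal.

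All 10 members are named. Of the other pathway lists, the 2 genes with the largest called change in BM against WT were named per readout, day and direction where mice did not overlap. A gene that this rule also names is not reported here. The 3 genes closest to the member of widest range were taken by Pearson r. The members and lists were chosen with earlier results of these data known. Each sample is an individual mouse. No label gives a batch, and per the series' design text all mice were harvested together. Promoter windows were found for 8 members; Deptor and Eif4ebp1 had none in the table used.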

Additional observations from a re-analysis of the deposited data

Results flagged for a closer look

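The effect of BM against WT differed between day 10 and day 4 by an interaction test in 5 readouts of members. The same test called 35.7% of all genes in footprints, 29.9% in RNA and 0.31% in TE. Akt1s1 footprints changed by 0.59 (log2) more at day 10. Rptor RNA changed by -0.99, Deptor RNA by -0.60 and Eif4ebp1 RNA by 0.74 relative to day 4. Rptor TE changed by 1.05. The first 4 were called in every alternative tried, and the last in 5 of 18.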

How the results depend on the processing

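Of 50 calls of members, 22 held in every alternative tried. No call reversed. DESeq2 moved the RNA counts against WT from 6 to 2 at day 4 and from 8 to 4 at day 10, and leaving the low-count filter out moved the latter to 5. For the BM effect between days, DESeq2, RLE scaling, the replicate block and all genotypes in 1 fit each gave 2 footprint calls in place of 1, the second being Rictor in each. In TE the block was the mouse, which pairs its 2 libraries. It gave 2 calls in place of 0 against WT at day 4, both in BM, and 2 in place of 1 between days. In these 2 fits 6.17% and 1.87% of all genes were called. Without the filter, or with RNA of the footprint isoform only, 0 TE calls remained between days. Leaving out 1 mouse gave counts of 3 to 6 (footprints) and 2 to 7 (RNA) against WT at day 4, 4 to 7 and 4 to 10 at day 10, 7 to 18 and 6 to 14 for BM against the single mutants, and 1 to 5 and 3 to 4 between days. In TE the ranges were 0 to 0, 0 to 3, 0 to 2 and 0 to 2 in the same order. The share of all genes called moved with the setting too. Without BM day 10 mouse 1, that of BM against WT at day 10 went from 46.8% to 66.3% in footprints. It went from 45.7% to 57.1% in RNA and from 0.259% to 21.5% in TE. These counts therefore follow the setting and do not describe the members alone. In footprints and RNA the block was the replicate number, which was shared between genotypes without a common source: deviations of same-numbered mice correlated at -0.169 to 0.245 (footprints) and -0.212 to 0.213 (RNA). With that block, the day 10 footprint count against WT was 6 in place of 4 (BM gained Rictor, adjusted p = 0.0637, and Tsc2, adjusted p = 0.095) and that of BM against the single mutants 10 in place of 13. Depth was lowest for Mlst8, with 49 to 172 footprint counts and 9 to 47 RNA counts a mouse.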
